A study of Rattus norvegicus with 16 samples.

Results

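The expression of 8 genes that make, sense and export cholesterol was followed in rat L4/L5 dorsal root ganglia (DRG): Hmgcs1, Sqle, Fdps and Idi1 (enzymes of synthesis), Insig1 (a sterol sensor of the same pathway), and the efflux genes Abca1, Abcg1 and Apoe. All Affymetrix probe sets listed with 1 of these gene symbols and no other were taken, whatever their values, which gave 14 of the 31042 probe sets tested. Sqle, Fdps and Insig1 had 1 probe set each, Idi1 and Apoe 2, Abcg1 3 and Abca1 4. In build GRCr8 the measured genes lie at chr5:72473676-72596563 (Abca1), chr20:9128056-9184312 (Abcg1), chr1:88481889-88485816 (Apoe), chr2:176795192-176804816 (Fdps), chr4:8049339-8057812 (Insig1), chr7:92758175-92773049 (Sqle) and chr17:66539761-66547524 (Idi1). Hmgcs1, which encodes the cytosolic synthase that forms HMG-CoA, had no probe set listed under its symbol and is named only, so 7 of the 8 genes were measured.

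Adult male Sprague-Dawley rats, 2 months old, and Sprague-Dawley pups, 10 days old, were operated under halothane, and ganglia were taken 7 days later, when the young rats were 17 days old. In spared nerve injury (SNI) the common peroneal and tibial branches of the sciatic nerve were cut and tied while the sural branch was left whole, and the study also put the tracer Fluorogold in the cut ends, although the array labels do not say in which animals. The groups were adult SNI, adult contralateral (the unoperated side of SNI rats), adult sham (nerve exposed only), young SNI, young contralateral and young sham. Each array held a pool, of 6 DRG from 3 rats in adults and of 8 DRG from 4 rats in young, with 3 arrays in each adult group and in young sham and 2 in young SNI and young contralateral. A ganglion injured in this way is mixed, since the neurons of the spared branch were not cut.

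Cholesterol is built from acetyl-CoA through the mevalonate and squalene steps, and the genes of this route are switched on together by SREBP transcription factors when membrane sterol is low. INSIG proteins hold the SREBP escort SCAP in the endoplasmic reticulum when sterol is high. Cells with too much sterol activate the LXR nuclear receptors, which raise the membrane pumps ABCA1 and ABCG1, and the exported lipid is carried by apolipoproteins such as APOE. In peripheral nerve, Schwann cells need much cholesterol for myelin, and macrophages and glia take up, export and recycle lipid from degenerating axons and myelin.

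The labels were set against marker genes first. The mean log2 value of 11 sensory neuron genes was between 10.45 and 12.25 in the 16 arrays, and the array medians over all probe sets were between 5.13 and 5.47. Young SNI replicate 2 stood apart: the mean of 8 oligodendrocyte and central glia genes was 12.20 there and between 4.33 and 5.36 in the other arrays, its sensory neuron mean was the lowest of all, and values without it are given beside the results that it moved most. The mean of 8 injury genes of sensory neurons was between 11.49 and 11.83 in adult SNI, against 6.35 to 6.63 in adult contralateral and 7.33 to 7.74 in adult sham. In young rats it was 8.64 and 10.68 in SNI, against 9.85 and 6.33 in contralateral and 10.17, 11.47 and 8.37 in sham, so the young SNI arrays were not set apart from young sham by these genes. Xist, which marks female tissue, was at or below 2.57 in every adult array and above 9 in 5 of the 7 young arrays. It was 11.84 and 12.05 in young SNI, 2.35 and 11.51 in young contralateral, and 11.87, 2.36 and 9.77 in young sham. The young groups thus differed in Xist. The part of sex in the young SNI differences and in the adult minus young response was not tested. By Xist, replicate 1 of young SNI and replicate 1 of young contralateral did not hold the same rats. A whole ganglion was measured, so fewer cells of a type and less RNA per cell cannot be told apart, and p-values measure the spread between pools.

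Abca1, the pump that loads cholesterol and phospholipid onto apolipoproteins, was higher in adult SNI and was the member with the largest differences against both controls. Its calls were lost with the replicate number as a block, as given below. With probe set 1384381_at the log2 values were 8.26, 8.80 and 8.44 in adult SNI, against 6.93, 6.78 and 6.47 in adult contralateral and 6.34, 6.50 and 6.65 in adult sham. The lowest adult SNI value was above the highest value of any other group, young rats included. The log2 difference was 2.00 ± 0.29 (SE, n = 3 against 3) against sham, a 4.01-fold change (95% interval of the log2 difference 1.37 to 2.63, adjusted p = 0.0156, limma), and 1.77 ± 0.29 against contralateral, 3.42-fold (adjusted p = 0.0167, limma).

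Another Abca1 probe set, 1383355_at, gave log2 values of 10.29, 10.49 and 10.45 in adult SNI, against 8.88, 9.02 and 9.34 in adult contralateral and 9.67, 8.95 and 8.77 in adult sham. Again every adult SNI array lay above every control array of the same age. The log2 difference was 1.28 ± 0.22 against sham, 2.43-fold (adjusted p = 0.0281, limma), and 1.33 ± 0.22 against contralateral, 2.51-fold (adjusted p = 0.0174, limma). These were 2 of the 14 member probe sets against each control, both higher, while 0.48% of all probe sets passed against sham (0.445% higher, 0.0354% lower) and 1.03% against contralateral (0.921% higher).

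The other Abca1 probe sets had differences of the same sign that did not pass. Probe set 1394490_at had log2 values of 8.24, 8.89 and 9.37 in adult SNI, against 8.07, 7.71 and 8.29 in adult contralateral and 7.44, 7.54 and 7.86 in adult sham. Its adult SNI arrays were all above sham and overlapped with contralateral, with log2 differences of 1.22 ± 0.30 (adjusted p = 0.162, limma) and 0.81 ± 0.30 (adjusted p = 0.355, limma). Without adult SNI replicate 1 it passed against sham (1.52, adjusted p = 0.0393, limma). Probe set 1382431_at, with 10.40, 10.66 and 11.11 in adult SNI against 10.12, 9.59 and 10.14 in adult contralateral and 9.56, 9.65 and 10.04 in adult sham, had its 3 SNI arrays highest, with log2 differences of 0.97 ± 0.29 against sham (adjusted p = 0.303, limma) and 0.77 ± 0.29 against contralateral (adjusted p = 0.371, limma). Across the 16 arrays the 4 probe sets followed each other with Pearson r between 0.54 and 0.887, as a description, since all were read on the same arrays.

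The Abca1 calls rested on few arrays. For 1384381_at the adjusted p against sham was between 0.0672 and 0.0709 (limma) without adult SNI replicate 2, adult sham replicate 1 or adult sham replicate 2, and against contralateral between 0.0557 and 0.0841 (limma) without adult SNI replicate 2 or 3 or without any 1 of the 3 adult contralateral replicates. For 1383355_at it was between 0.0522 and 0.129 (limma) against sham without adult SNI replicate 2 or 3, adult contralateral replicate 2, adult sham replicate 2 or 3, or young sham replicate 1, and between 0.0652 and 0.096 (limma) against contralateral without adult SNI replicate 2 or 3 or adult contralateral replicate 1 or 2. Adult SNI and contralateral arrays of the same number deviated together and were taken as pairs. The adjusted p against contralateral given above came from the fit without pairs. With the replicate number as a block, the calls against contralateral were lost. The adjusted p was then 0.0597 for 1384381_at and 0.0741 for 1383355_at (limma), with the log2 differences at 1.77 and 1.33. That block also spanned sham and young arrays, and no fit of the adult pairs alone was made. Without young SNI replicate 2 the adult calls were kept, with 2 member probe sets passing against each control.

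**Figure D1:**
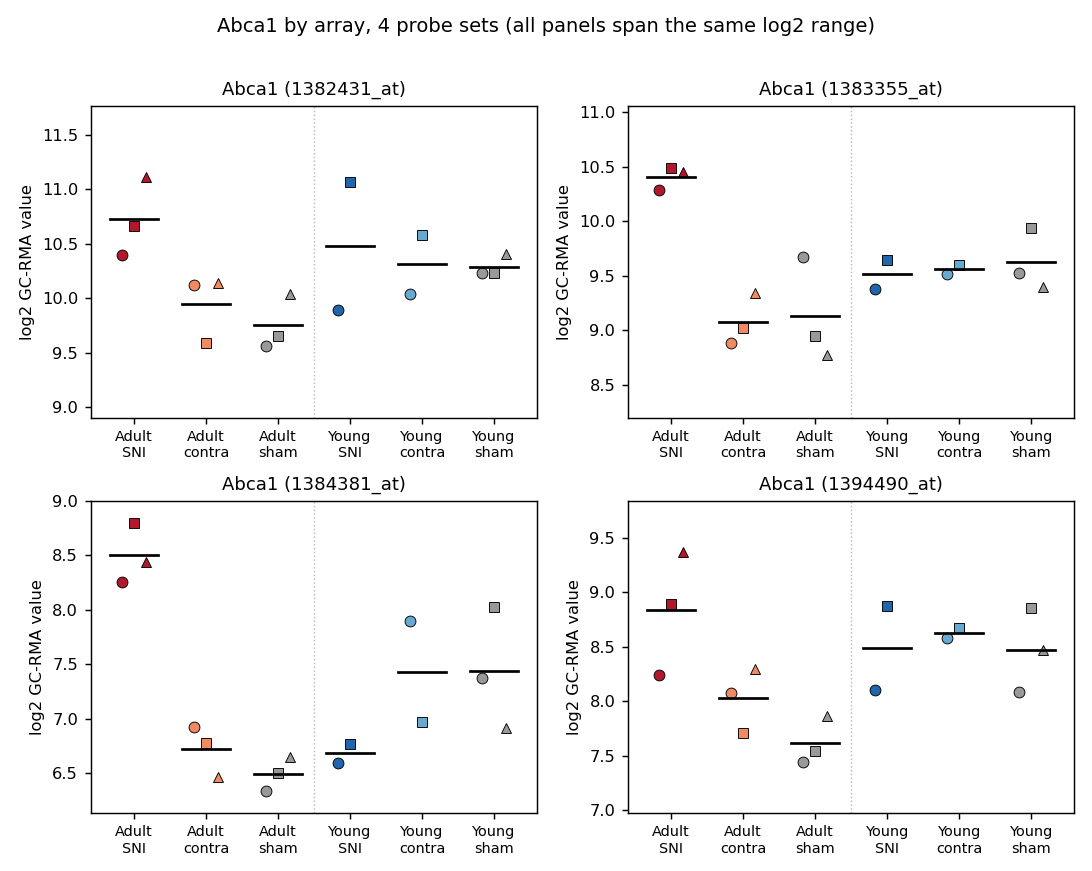
Log2 GC-RMA values of the 4 Abca1 probe sets (y axis) in each array of the 6 groups (x axis; contra, contralateral). Circles, squares and triangles are replicates 1, 2 and 3, and the line is the group mean. With 1384381_at and 1383355_at the 3 adult SNI arrays lie above all other arrays, and with 1384381_at the young SNI arrays, 6.60 and 6.77, lie below the other young arrays.

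Sequence just upstream of the Abca1 start is shown because its transcript moved, beside that of Fdps and Insig1, sterol-controlled genes whose transcripts did not pass. Each line gives 250 bases before and 50 from the annotated start on, from RefSeq on build GRCr8, at chr5:72596424-72596723 for Abca1, chr2:176804767-176805066 for Fdps and chr4:8057720-8058019 for Insig1, all on the minus strand. Capitals mark the motifs found.
Abca1: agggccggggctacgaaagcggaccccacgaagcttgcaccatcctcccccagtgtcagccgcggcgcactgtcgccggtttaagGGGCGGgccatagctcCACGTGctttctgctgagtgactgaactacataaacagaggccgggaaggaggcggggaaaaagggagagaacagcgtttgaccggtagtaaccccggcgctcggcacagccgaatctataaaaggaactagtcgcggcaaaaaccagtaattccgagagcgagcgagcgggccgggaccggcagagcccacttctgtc
Fdps: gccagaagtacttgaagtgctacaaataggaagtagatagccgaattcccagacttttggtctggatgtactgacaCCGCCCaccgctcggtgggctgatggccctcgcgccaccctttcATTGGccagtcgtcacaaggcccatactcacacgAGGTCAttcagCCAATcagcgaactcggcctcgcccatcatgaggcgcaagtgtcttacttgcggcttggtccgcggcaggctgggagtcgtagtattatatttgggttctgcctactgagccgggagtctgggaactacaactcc
Insig1: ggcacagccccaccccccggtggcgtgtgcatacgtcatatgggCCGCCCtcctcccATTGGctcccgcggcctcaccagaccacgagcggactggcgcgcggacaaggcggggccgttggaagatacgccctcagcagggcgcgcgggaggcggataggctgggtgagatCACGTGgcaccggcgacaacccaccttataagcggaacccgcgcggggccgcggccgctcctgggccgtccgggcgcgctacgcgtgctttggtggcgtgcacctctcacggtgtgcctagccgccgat
Of the 8 genes, 6 had a promoter entry. The motifs searched on both strands were the CCAAT box CCAAT, present in 37.5% of 33469 rat promoters of this length, the GC box GGGCGG (33.1%), the E-box CACGTG (6.42%), the nuclear receptor motif AGGTCA (16.2%) and the core of the sterol regulatory element TCACNCCAC (1.12%). The Abca1 window held a GC box at -165 and an E-box at -149 from the start, and the Insig1 window an E-box at -79, a CCAAT box at -193 and a GC box at -206. The Fdps window held CCAAT boxes at -130 and -85, a GC box at -174 and AGGTCA at -96. No window of the 6 genes held an exact TCACNCCAC. Exact AGGTCA was absent from the Abca1 and Insig1 windows. Only exact copies of the letters were searched, so other forms of these sites would be missed, and absence of a match does not show absence of a site. These matches describe the letters only, and no binding was measured.

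In young rats no member passed after SNI. Against young sham 0 of 14 probe sets were called by limma (1 at an unadjusted p below 0.05), while 0.0161% of all probe sets were called (1836 at an unadjusted p below 0.05). Against young contralateral 0 of 14 were called (0 unadjusted), beside 0.00966% of all (1843 unadjusted). Abca1 1384381_at had log2 values of 6.60 and 6.77 in young SNI, against 7.90 and 6.97 in young contralateral and 7.38, 8.03 and 6.92 in young sham. Both young SNI arrays lay below all 5 young control arrays, with a log2 difference of -0.76 ± 0.32 against sham (adjusted p = 0.837, limma) and -0.75 ± 0.35 against contralateral (adjusted p = 0.798, limma).

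The other Abca1 probe sets did not share this order in young SNI. With 1383355_at the log2 values were 9.38 and 9.65 in young SNI, against 9.52 and 9.60 in young contralateral and 9.53, 9.94 and 9.40 in young sham, and the groups overlapped (log2 difference against sham -0.11, 95% interval -0.64 to 0.43, and -0.24 without young SNI replicate 2). With 1382431_at young SNI replicate 2 had 11.07, the highest of the 7 young arrays, and replicate 1 had 9.89, the lowest. The log2 difference against young sham of 1382431_at was 0.19 with both arrays and -0.40 without replicate 2, and that of 1384381_at was -0.76 with both and -0.84 without it, none of them past the threshold.

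Whether the response differed with age was tested as the adult difference minus the young difference. The young SNI arrays were not set apart from young sham by the injury genes, and the part of this was not tested. None of the 14 probe sets passed (limma), beside 0.0773% of all probe sets against sham (0.0612% higher) and 0.0193% against contralateral. At an unadjusted p below 0.05 (limma) there were 3 and 2 members, beside 6.28% and 4.81% of all probe sets. The value for Abca1 1384381_at was 2.76 ± 0.43 on the log2 scale against sham (adjusted p = 0.0526, limma) and 2.52 ± 0.45 against contralateral (adjusted p = 0.236, limma). For 1383355_at it was 1.39 ± 0.33 (adjusted p = 0.234, limma) and 1.38 ± 0.35 (adjusted p = 0.531, limma). Without young SNI replicate 2 the values for 1384381_at were 2.85 (adjusted p = 0.0671, limma) and 2.61 (adjusted p = 0.193, limma). The value against sham passed without adult SNI replicate 1 (2.88, adjusted p = 0.0452, limma) or young sham replicate 3 (3.02, adjusted p = 0.0163, limma). Without young SNI replicate 1, so on replicate 2 alone, the array that stood apart, the values were 2.68 against sham and 2.44 against contralateral. With young contralateral replicate 1 as the lone array of its group, the value against contralateral was 2.99. Such values rest on a lone array.

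Between the injured ganglia of both ages, Abca1 1384381_at was the 1 member that passed, 1.82 ± 0.32 higher on the log2 scale in adult SNI than in young SNI (adjusted p = 0.0182, limma), beside 2.64% of all probe sets (1.73% higher). All 3 adult SNI values, 8.26 to 8.80, were above both young SNI values, 6.60 and 6.77. The call was lost without young SNI replicate 2 (1.90, adjusted p = 0.0849, limma) and without adult SNI replicate 2 (1.66, adjusted p = 0.0597, limma). Abca1 1383355_at had 0.90 (adjusted p = 0.0781, limma) and passed without adult sham replicate 1 (adjusted p = 0.0294, limma), and Fdps had 0.51 (adjusted p = 0.272, limma) and passed on young SNI replicate 2 alone (0.89, adjusted p = 0.0324, limma), while without that array it was 0.13. Among uninjured ganglia the order was turned, without passing: 1384381_at was lower by 0.95 in adult sham than in young sham (log2 difference -0.95 ± 0.29, adjusted p = 0.189, limma) and by 0.71 in adult contralateral than in young contralateral (log2 difference -0.71 ± 0.32, adjusted p = 0.523, limma). Of the 14 members 0 passed in either control comparison, beside 0.622% of all probe sets in sham (0.393% lower) and 0.177% in contralateral (0.126% lower, 0.0515% higher). At an unadjusted p below 0.05 (limma) there were 3 and 2 members, beside 12.3% and 9.52% of all probe sets.

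Macrophage markers moved with Abca1 in adult SNI. The mean log2 value of 13 macrophage genes was 6.56, 7.30 and 7.35 in adult SNI, against 5.01, 5.24 and 5.10 in adult contralateral and 5.99, 5.43 and 6.06 in adult sham. All 13 were higher in adult SNI against each control, of which 7 passed against contralateral and 0 against sham, with a median log2 difference of 2.26 and 1.40. Of the defining genes, Cx3cr1 (2.03 to 2.34), Itgam (2.54 to 3.03), Cd163 (2.24 to 2.97), Cd14 (3.00 to 5.02) and Cd68 (1.69 to 5.05) stayed below the array medians in all groups. The smallest of the 13 log2 differences were 0.057 against sham and 0.017 against contralateral. In young rats the macrophage mean was 5.90 and 6.58 in SNI, against 5.66 and 4.60 in contralateral and 6.33, 6.38 and 5.54 in sham. Fibroblast and Schwann cell markers also had a higher group mean in adult SNI than in either adult control, with overlap of single arrays. The mean of 5 fibroblast genes was 12.03, 12.37 and 12.75 in adult SNI, against 11.07, 11.77 and 11.70 in adult contralateral and 11.61, 11.35 and 12.70 in adult sham, with 5 of 5 genes higher against each control, 0 called, and a median log2 difference of 0.88 against contralateral and 0.51 against sham. Of 10 myelinating Schwann cell genes 10 were higher against contralateral (median 0.29) and 8 against sham (median 0.22), with 0 called. Their mean was 11.17, 11.04 and 12.04 in adult SNI, against 10.75, 11.29 and 11.22 in adult contralateral and 11.10, 10.88 and 11.86 in adult sham. These groups overlapped. The part of these markers in the Abca1 difference was not tested.

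Abcg1, which moves cholesterol to lipoprotein particles that already hold lipid, did not pass in any comparison of SNI with a control, and its probe sets did not share a sign with Abca1 in adults. With 1373995_at the log2 values were 6.55, 6.48 and 5.99 in adult SNI, against 6.95, 7.20 and 7.11 in adult contralateral and 6.54, 6.99 and 6.90 in adult sham. All adult SNI arrays lay below contralateral and 1 of them overlapped with sham, with log2 differences of -0.75 ± 0.17 against contralateral (adjusted p = 0.0872, limma) and -0.47 ± 0.17 against sham (adjusted p = 0.492, limma). The difference against contralateral passed with array weights (-0.69, adjusted p = 0.0261, limma) and with quantile normalization (-0.74, adjusted p = 0.0446, limma). In young rats the same probe set had 6.31 and 5.88 in SNI, against 6.54 and 6.50 in contralateral and 6.71, 6.42 and 6.35 in sham, both SNI arrays lowest (log2 difference against sham -0.40, 95% interval -0.83 to 0.03). Without young SNI replicate 2 the difference was -0.18 against sham and -0.21 against contralateral.

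Probe set 1368103_at followed 1373995_at over the 16 arrays (r = 0.836), and 1387054_at, which was between 4.75 and 6.19, did not (r = 0.127). The log2 values of 1387054_at were 4.75, 4.82 and 5.29 in adult SNI, against 5.21, 5.46 and 5.25 in adult contralateral and 6.19, 5.19 and 5.26 in adult sham. Its group mean was lowest in adult SNI (4.95, against 5.31 and 5.55), and SNI replicate 3 overlapped with both controls. With 1368103_at the log2 values were 10.18, 10.23 and 9.99 in adult SNI, against 10.52, 10.59 and 10.53 in adult contralateral and 9.69, 10.52 and 10.33 in adult sham. Here too the SNI arrays were below contralateral and overlapped with sham (log2 differences -0.41, 95% interval -0.86 to 0.04, and -0.05, 95% interval -0.50 to 0.40). In young SNI replicate 2 it was 9.39, the lowest of all arrays, against 10.12 in replicate 1.

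Apoe, the lipid carrier made by glia and macrophages, had log2 values with 1370862_at of 14.34, 14.72 and 14.54 in adult SNI, against 14.14, 14.67 and 14.31 in adult contralateral and 14.65, 14.29 and 14.50 in adult sham. The groups overlapped, and the log2 difference was 0.05 (95% interval -0.34 to 0.44) against sham and 0.16 (95% interval -0.23 to 0.55) against contralateral. Young SNI had 14.51 and 14.00, against 14.55 and 14.45 in young contralateral and 14.69, 14.48 and 14.25 in young sham. The other Apoe probe set, 1371288_at, was between 3.81 and 4.06 in every array and did not follow the first (r = -0.32).

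**Figure D2:**
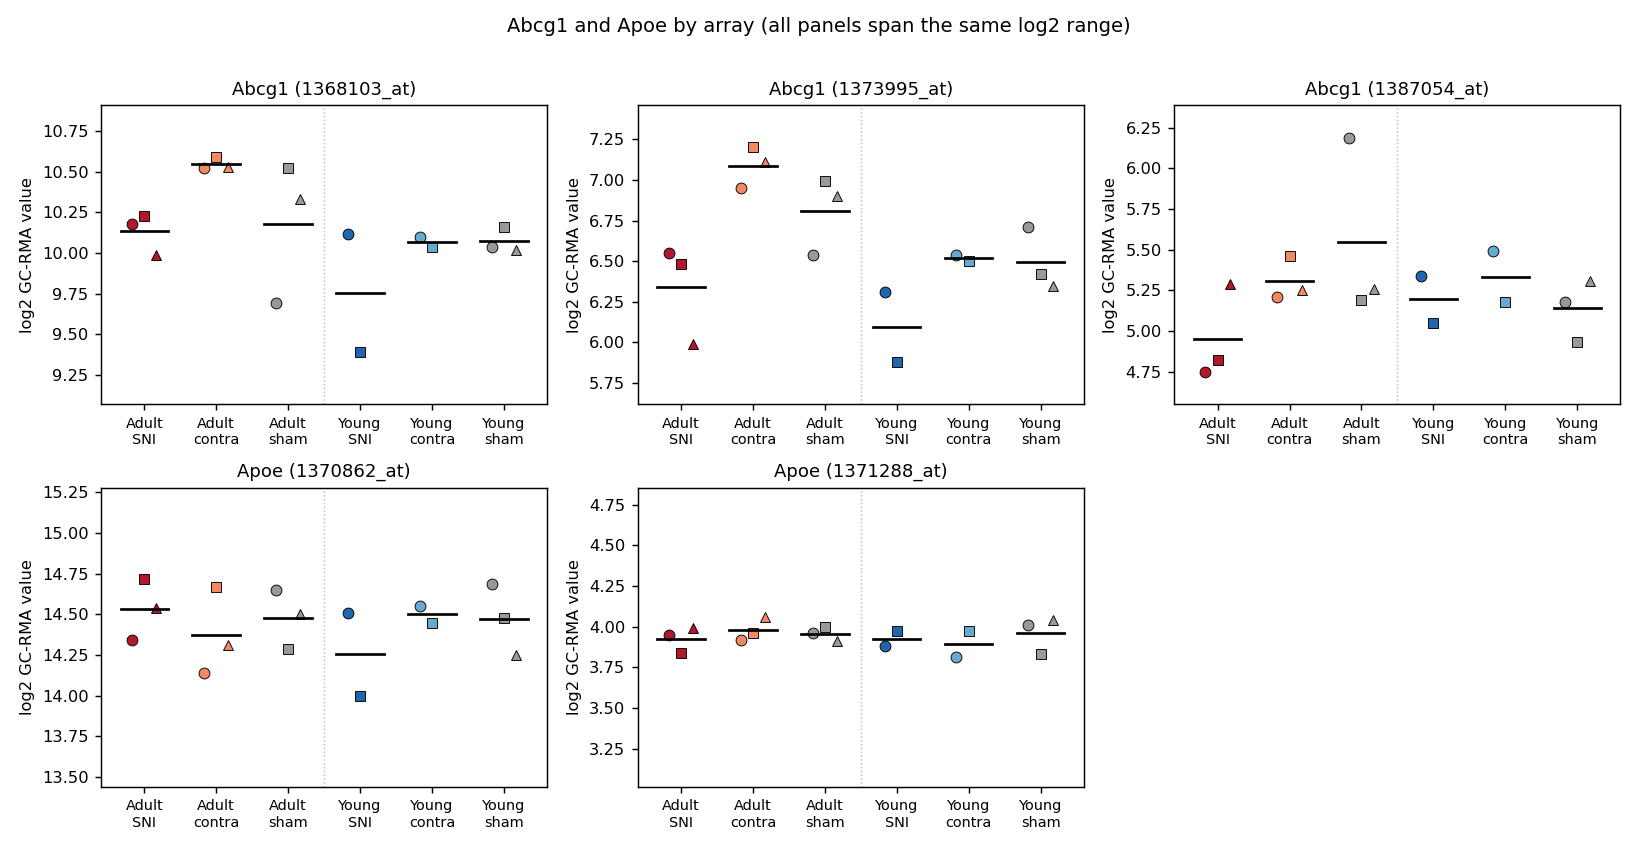
Log2 GC-RMA values of the 3 Abcg1 and 2 Apoe probe sets (y axis) in each array of the 6 groups (x axis; contra, contralateral). Circles, squares and triangles are replicates 1, 2 and 3, and the line is the group mean. The adult SNI arrays lie below adult contralateral with Abcg1 1368103_at and 1373995_at, and the groups overlap with Apoe.

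The synthesis genes differed little between SNI and control ganglia. None of their 5 probe sets passed in any of the 4 comparisons with a control, and the log2 differences were between -0.08 and 0.45 in adult rats and between -0.29 and 0.10 in young rats (-0.02 to 0.21 without young SNI replicate 2). Sqle, the squalene epoxidase, had log2 values of 11.83, 11.70 and 11.73 in adult SNI, against 11.75, 12.01 and 11.73 in adult contralateral and 11.41, 11.76 and 11.95 in adult sham. Its log2 difference against sham was 0.05 (95% interval -0.26 to 0.36), and the SNI arrays lay within the range of the controls.

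Fdps, the farnesyl diphosphate synthase that feeds squalene and protein prenylation, had the largest adult difference of the group. It had log2 values of 12.64, 13.03 and 13.24 in adult SNI, against 12.37, 12.84 and 12.36 in adult contralateral and 12.54, 12.53 and 12.84 in adult sham. Adult SNI replicates 2 and 3 were the highest adult arrays and replicate 1 overlapped with the controls, with a log2 difference of 0.45 (95% interval -0.02 to 0.92) against contralateral and 0.33 (95% interval -0.14 to 0.80) against sham. In young SNI it was 12.84 and 12.08, against 12.66 and 12.61 in young contralateral and 12.95, 12.71 and 12.60 in young sham, and the log2 difference against sham was -0.29 with replicate 2 and 0.09 without it.

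Idi1, the isomerase that readies isoprene units, had 2 probe sets that followed each other over the 16 arrays (r = 0.874). With 1368878_at the log2 values were 12.44, 12.17 and 12.62 in adult SNI, against 12.04, 12.43 and 12.30 in adult contralateral and 11.90, 12.09 and 12.85 in adult sham. Adult sham replicate 3 was the highest adult array for both probe sets, and the log2 difference against sham was 0.13 (95% interval -0.38 to 0.64) and 0.09 (95% interval -0.52 to 0.70). Insig1 had log2 values of 11.67, 12.19 and 11.84 in adult SNI, against 11.64, 12.23 and 11.67 in adult contralateral and 11.82, 11.90 and 11.93 in adult sham, with a log2 difference of 0.02 (95% interval -0.32 to 0.35) against sham. In adult SNI and contralateral the highest Insig1 array was replicate 2.

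**Figure D3:**
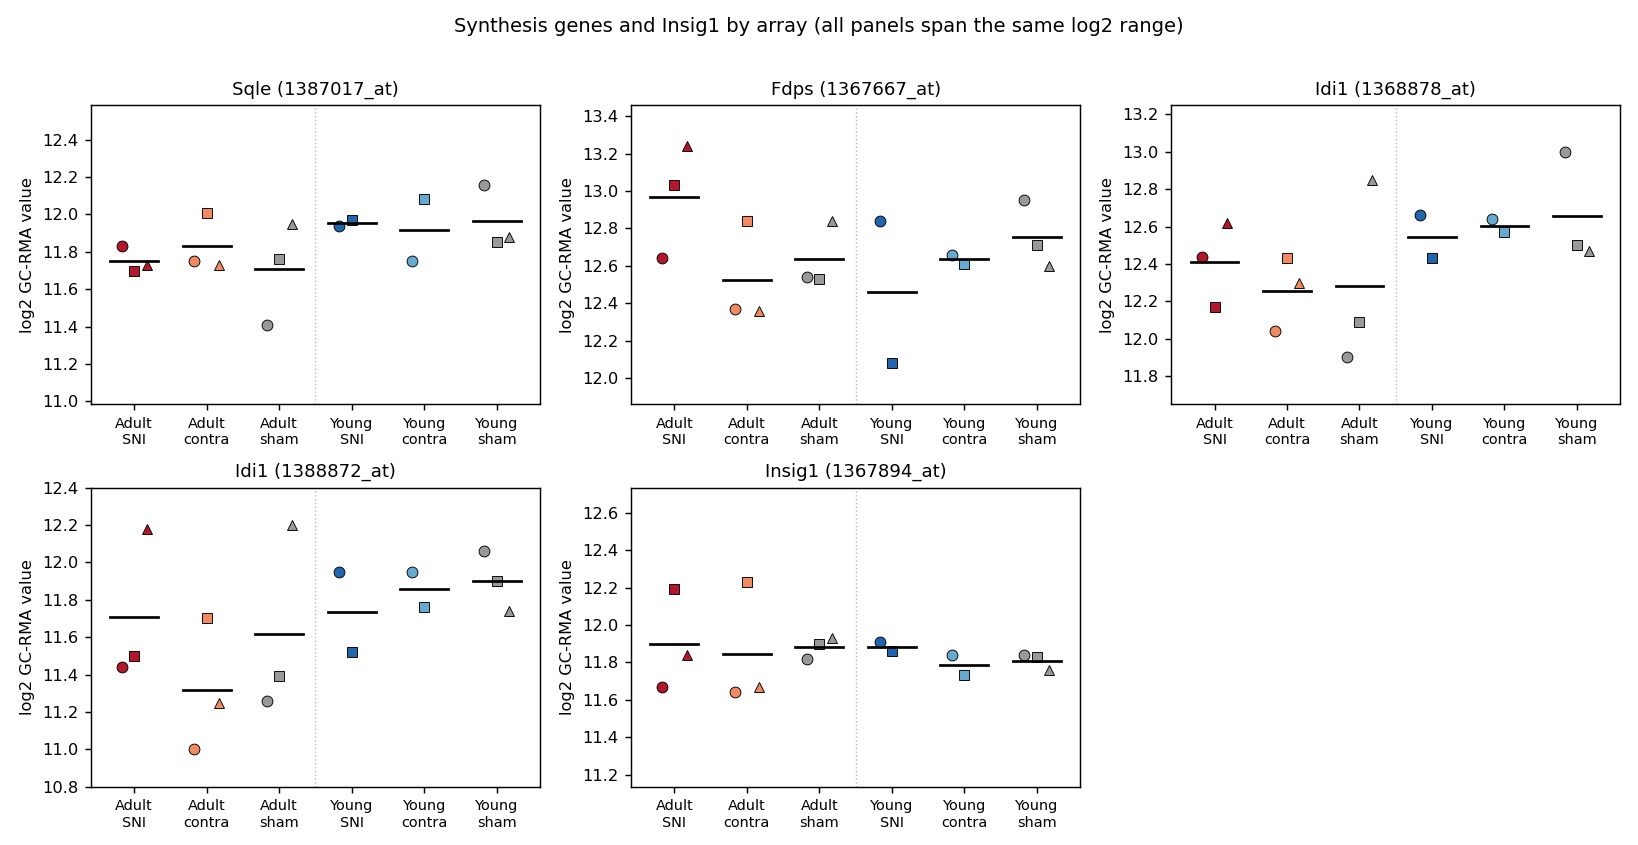
Log2 GC-RMA values of Sqle, Fdps, Idi1 and Insig1 (y axis) in each array of the 6 groups (x axis; contra, contralateral). Circles, squares and triangles are replicates 1, 2 and 3, and the line is the group mean. The adult SNI arrays overlap with the adult control arrays in every panel.

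Set side by side, the mean log2 value of the 4 measured synthesis genes was 12.26 ± 0.11 in adult SNI, against 12.11 ± 0.23 in adult contralateral and 12.13 ± 0.24 in adult sham (SD, n = 3 each). That of the 3 efflux genes was 11.80 ± 0.14 in adult SNI, against 11.62 ± 0.03 in adult contralateral and 11.47 ± 0.16 in adult sham. In young rats the synthesis mean was 12.21 and the efflux mean 11.50 in SNI, against 12.23 and 11.63 in contralateral and 12.30 and 11.61 in sham. The medians of the 14 log2 differences were 0.07 against adult sham and 0.16 against adult contralateral, beside -0.02 and -0.04 over all probe sets, and -0.11 and -0.13 in young SNI, beside 0.01 and 0.01. Abca1 entered the efflux mean with 1382431_at, whose adult log2 differences were 0.97 against sham and 0.77 against contralateral, and Abcg1 with 1368103_at, whose differences were -0.05 and -0.41.

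**Figure D4:**
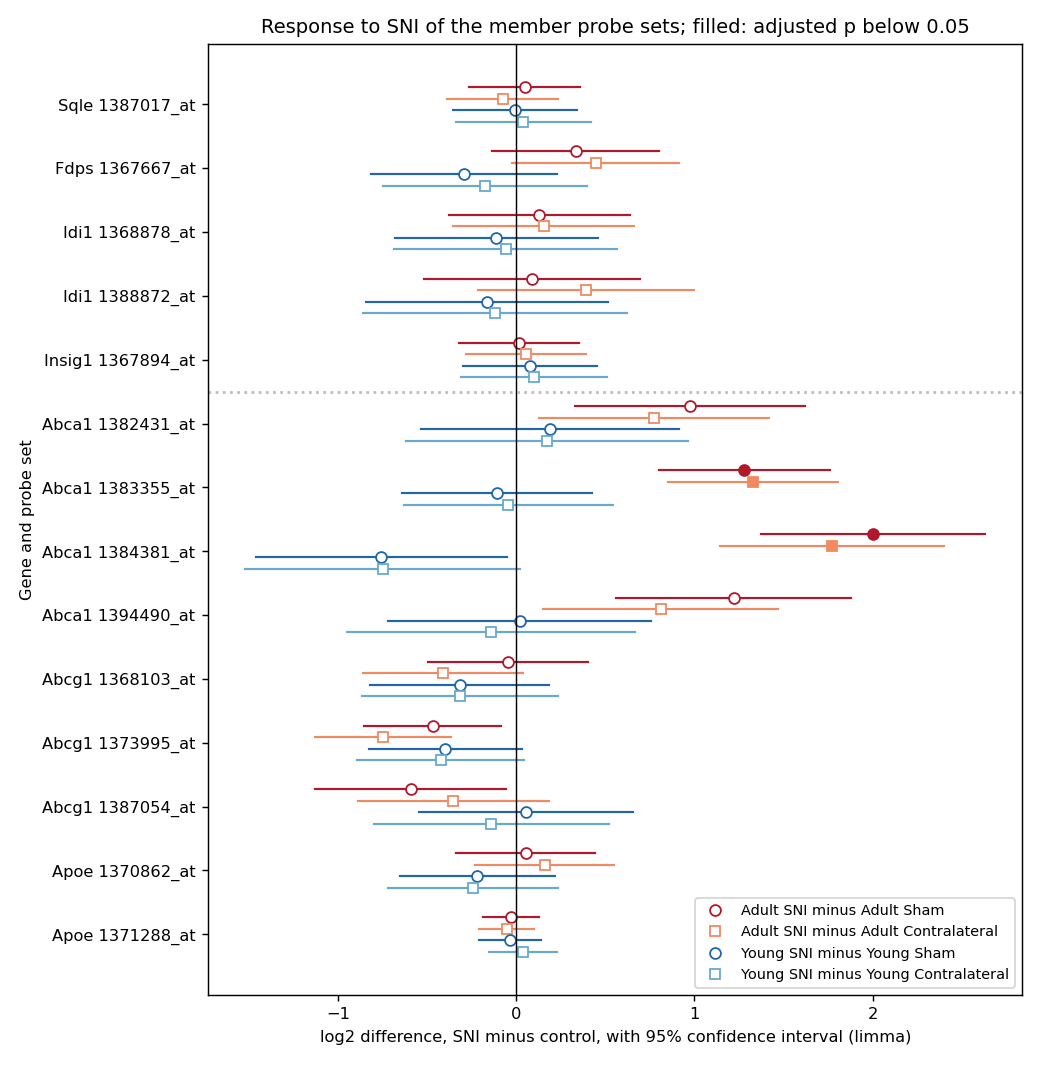
Log2 difference of SNI minus control (x axis) with its 95% confidence interval for each of the 14 probe sets (y axis), in adults (red, orange) and young rats (blue, light blue), against sham (circles) and contralateral (squares). Filled symbols passed an adjusted p of 0.05 and are the Abca1 probe sets 1384381_at and 1383355_at in adults.

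The rest of the pathway was read from lists of genes with 1 probe set each. In adult SNI 0 of 15 further sterol enzymes, 0 of 6 genes that control SREBP, 0 of 11 fatty acid targets of SREBP, 0 of 17 further efflux and LXR genes and 0 of 11 uptake and storage genes passed against either control (limma), and the same was so in young SNI. Their median log2 differences against adult sham were 0.19, 0.06, 0.21, 0.12 and 0.23. The smallest p against adult contralateral was that of Pltp, the phospholipid transfer protein, with log2 values of 7.57, 9.06 and 8.99 in adult SNI, against 6.15, 6.81 and 6.40 in adult contralateral and 7.38, 6.77 and 7.78 in adult sham. The SNI arrays were all above contralateral and overlapped with sham (log2 difference against contralateral 2.09 ± 0.49, adjusted p = 0.085, limma). Pltp passed without adult SNI replicate 1 (2.57, adjusted p = 0.0201, limma), with the filter on low values (2.09, adjusted p = 0.03, limma) and with array weights (1.86, adjusted p = 0.0404, limma).

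The other genes named by the smallest p did not pass in this fit. Acss2, which makes acetyl-CoA from acetate, had 0.69 ± 0.19 against adult contralateral on the log2 scale (adjusted p = 0.155, limma), with all SNI arrays higher, and passed with array weights (0.64, adjusted p = 0.0403, limma). Against adult sham they were Acly, the citrate lyase (0.43 ± 0.15, adjusted p = 0.453, limma), and Apod, an apolipoprotein of glia (1.11 ± 0.40, adjusted p = 0.455, limma). In young rats Lipa, the lysosomal acid lipase, had log2 values of 10.42 and 9.26 in SNI, against 10.48 and 10.52 in contralateral and 10.32, 10.52 and 10.34 in sham. Replicate 2 stood low and replicate 1 lay within the range of sham, and the log2 difference was -0.55 ± 0.25 against young sham (adjusted p = 0.837, limma) and -0.66 ± 0.27 against young contralateral (adjusted p = 0.798, limma). Without young SNI replicate 1, so on replicate 2 alone, it was -1.13 against sham (adjusted p = 0.000373, limma) and -1.24 against contralateral (adjusted p = 0.00031, limma). Without replicate 2, the array that stood apart, Lipa was at 0.03 against sham and -0.08 against contralateral.

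Abca2, a lipid transporter of myelinating cells, had a log2 difference of 0.38 ± 0.19 against young sham (adjusted p = 0.845, limma), and Lrp1, a lipoprotein receptor, 1.09 ± 0.44 against young contralateral (adjusted p = 0.798, limma). On young SNI replicate 2 alone these were 0.71 for Abca2 (adjusted p = 0.0291, limma) and 1.87 for Lrp1 (adjusted p = 0.00867, limma), and without that array they were 0.04 for Abca2 and 0.31 for Lrp1. For the adult minus young response against sham, Soat1, which esterifies cholesterol for storage, had 1.01 ± 0.35 (adjusted p = 0.595, limma), and Lcat, which esterifies it on lipoproteins, had -1.22 ± 0.45 (adjusted p = 0.651, limma). Against contralateral the smallest p were those of Acss2 (0.67 ± 0.30) and of Pmvk, the phosphomevalonate kinase (0.55 ± 0.30), with an adjusted p = 0.799 each (limma), and Pmvk was at 0.29 without young SNI replicate 2.

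Age was read as adult minus young over the 3 surgery groups, where 10.6% of all probe sets passed (5.55% higher, 5.04% lower). Of the 14 members 1 passed, Abcg1 1373995_at, higher in adult rats by 0.38 ± 0.11 on the log2 scale (adjusted p = 0.0495, limma). At an unadjusted p below 0.05 (limma) there were 2 members, beside 24% of all probe sets. The log2 values of Abcg1 1373995_at were between 5.99 and 7.20 in the 9 adult arrays, against 5.88 to 6.71 in the 7 young arrays, and the ages overlapped. The call was lost without young SNI replicate 2 (0.30, adjusted p = 0.139, limma). It was also lost, with an adjusted p between 0.0631 and 0.108 (limma), without adult SNI replicate 1 or 2, adult sham replicate 2 or 3, young sham replicate 2 or 3, or any 1 of the 3 adult and 2 young contralateral arrays.

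The synthesis members were not set apart by age either. The log2 differences, adult minus young, were -0.18 ± 0.09 for Sqle, -0.29 ± 0.14 for Idi1 1368878_at and 0.09 ± 0.13 for Fdps, which was at -0.03 without young SNI replicate 2. Without adult sham replicate 3, the high array named above, Idi1 1368878_at passed (-0.38, adjusted p = 0.0469, limma). Abcg1 1368103_at had 0.32 (adjusted p = 0.146, limma), or 0.20 without young SNI replicate 2, and passed without adult sham replicate 1 (0.40, adjusted p = 0.0289, limma) or young SNI replicate 1 (0.44, adjusted p = 0.0222, limma).

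Among the other genes of the pathway some passed with age, in both directions. Of the 15 sterol enzymes 3 were lower in adult rats and 0 higher, Hsd17b7 (-0.53 ± 0.10), Dhcr7 (-0.47 ± 0.11) and Tm7sf2 (-0.44 ± 0.12), which reduce sterol intermediates. Over all probe sets 5.04% were called lower and 5.55% higher, here and for the list that follows. Of the 11 fatty acid targets of SREBP 3 were lower and 0 higher, Elovl6 (-0.59 ± 0.09), Fasn (-0.47 ± 0.12) and Acaca (-0.36 ± 0.08), which build and lengthen fatty acids. The median over the list was -0.14 for the sterol enzymes and 0.04 for the fatty acid targets, beside 0.02 over all probe sets. Markers of other cells moved with age in the same direction, beside the same 5.04% lower and 5.55% higher over all probe sets. Of 10 myelinating Schwann cell genes 9 were lower in adult rats (4 called lower, 1 higher, median -0.69). Of 5 fibroblast genes 4 were lower (2 called, median -0.74). Mag is also on the central glia list, and was 12.22 in young SNI replicate 2, against 9.17 to 9.94 in the other young arrays. The Schwann cell mean of that array was 12.17. The Schwann cell mean was between 10.75 and 12.04 in adult rats, against 11.68 to 12.28 in young rats, and its part in the lower synthesis genes was not tested.

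Elovl6, the elongase, had log2 values between 10.70 and 11.24 in adult rats, against 11.38 to 11.91 in young rats, with no overlap (adjusted p = 0.0027, limma). Hsd17b7 was between 9.11 and 9.76 in adult rats, against 9.71 to 10.26 in young rats, with an overlap of single arrays (adjusted p = 0.00911, limma). The adjusted p was 0.0122 for Acaca, 0.0244 for Dhcr7, 0.0278 for Fasn and 0.0391 for Tm7sf2 (limma). Tm7sf2 was lost without any 1 of 14 arrays, that is all but adult SNI replicate 3 and adult sham replicate 1 (adjusted p between 0.0504 and 0.107, limma). Fasn was lost without adult SNI replicate 2, adult contralateral replicate 1 or 3, either young contralateral replicate or young sham replicate 1 (0.0505 to 0.0804), and Dhcr7 without young contralateral replicate 1 (0.0814).

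Of the 17 further efflux and LXR genes 3 were higher in adult rats and 0 lower, beside 5.55% higher and 5.04% lower over all probe sets. Cyp27a1, which makes an oxysterol that activates LXR, had log2 values between 6.40 and 7.36 in adult rats, against 4.69 to 6.17 in young rats, with no overlap (1.31 ± 0.21, adjusted p = 0.00393, limma). Nr1h3, which encodes LXR alpha, was between 5.82 and 7.47 in adult rats, against 4.91 to 6.38 in young rats, and the ages overlapped (1.05 ± 0.24, adjusted p = 0.0197, limma). Lcat was between 7.04 and 8.42 in adult rats, against 5.97 to 7.26 in young rats, with young SNI replicate 2 inside the adult range (0.94 ± 0.19, adjusted p = 0.0103, limma). Nr1h3 was lost without young SNI replicate 2 (0.85, adjusted p = 0.053, limma) or young contralateral replicate 2 (0.90, adjusted p = 0.0599, limma), and Cyp27a1 and Lcat were kept without young SNI replicate 2 (1.12 and 1.01). Of the 13 macrophage genes 10 were higher in adult rats (1 called higher, 1 lower, median 0.27), and their part in these differences was not tested.

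Of the 6 genes that control SREBP, Insig2, a relative of Insig1, was higher in adult rats (0.43 ± 0.12, adjusted p = 0.0371, limma), a call lost without any 1 of 10 arrays (adult SNI replicate 1 or 2, adult contralateral replicate 2 or 3, adult sham replicate 1 or 3, young contralateral replicate 1 or 2, young sham replicate 2 or 3; adjusted p between 0.0541 and 0.111, limma). Of the 11 uptake and storage genes 1 was higher, Npc2, which hands cholesterol out of the lysosome, at 12.21 to 12.94 in adult rats, against 11.90 to 12.41 in young rats (0.47 ± 0.09, adjusted p = 0.00828, limma). These counts, 1 of 6 and 1 of 11 genes, stand beside 5.55% of all probe sets called higher, and such small lists give no result for the list. Npc2 was also the 1 pathway gene that passed between adult SNI and young SNI (0.76 ± 0.16, adjusted p = 0.0361, limma), and it was lost there without young SNI replicate 2 (0.72, adjusted p = 0.206, limma), adult SNI replicate 2 or 3, or adult contralateral replicate 1 or 3 (0.0527 to 0.106).

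With the replicate number as a block the age calls of Abcg1 1373995_at, Dhcr7, Tm7sf2, Insig2, Acaca and Fasn were lost, with an adjusted p of 0.0758, 0.12, 0.15, 0.068, 0.0561 and 0.0982 (limma). This block also spanned sham and young arrays, whose numbers were not taken as pairs, so these losses are no account of a real pairing there. With p adjusted over all comparisons together the age calls of Hsd17b7 (0.0502), Lcat (0.0566), Acaca (0.0659), Nr1h3 (0.1), Dhcr7 (0.121), Fasn (0.135), Insig2 (0.17), Tm7sf2 (0.179) and Abcg1 1373995_at (0.215) were lost, as was Npc2 between adult SNI and young SNI (0.07). With array weights Abcg1 1373995_at (0.0502), Nr1h3 (0.0503), Fasn (0.0594) and Npc2 between adult SNI and young SNI (0.253) were lost, and with quantile normalization Insig2 (0.0532).

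The ages differed in more than age. Adult pools held 3 rats and young pools 4, which cannot be told apart from age. By Xist the adult arrays were of male tissue and most young arrays held female tissue, and the part of sex in the age differences was not tested. In young contralateral replicate 1 and young sham replicate 2, where Xist was 2.35 and 2.36, Cyp27a1 was 5.93 and 5.88, below every adult array, and Elovl6 was 11.61 and 11.51, above every adult array. In the same arrays Nr1h3 was 5.82 and 6.38, within the adult range, Hsd17b7 was 9.71 and 9.95, of which the first lay within it, and Npc2 was 12.10 and 12.39, of which the last lay within it.

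**Figure D5:**
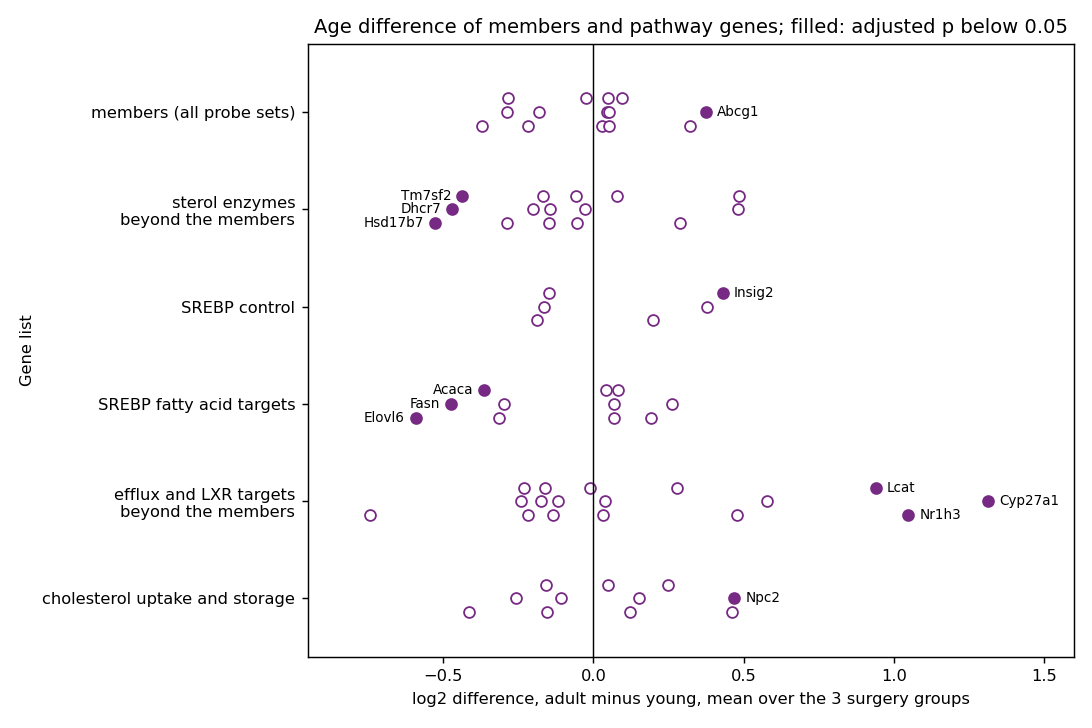
Log2 difference, adult minus young over the 3 surgery groups (x axis), for each member probe set and each measured gene of the cholesterol and fatty acid lists (y axis, by list). Filled, named points passed an adjusted p of 0.05, and among them Cyp27a1 at 1.31 lies farthest to the right and Elovl6 at -0.59 farthest to the left.

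Within each control, Lcat and Elovl6 had the smallest p between adult sham and young sham (1.48 ± 0.30, adjusted p = 0.0582, and -0.62 ± 0.14, adjusted p = 0.0876, limma; Lcat passed without either young SNI array, adjusted p = 0.0469), and Dhcr7 and Elovl6 between adult contralateral and young contralateral (-0.71 ± 0.21, adjusted p = 0.24, and -0.52 ± 0.16, adjusted p = 0.272, limma). Between the controls of 1 age, contralateral minus sham, 0 of 14 members passed at either age by limma (0 at an unadjusted p below 0.05), beside 0% of all probe sets (625 unadjusted in adults and 697 in young rats). The pathway genes with the smallest p there were Lcat (-0.57) and Mvk, the mevalonate kinase (-0.37), in adults (adjusted p = 0.98, limma), and Pltp (-1.20) and Lrp8, a lipoprotein receptor (-0.30), in young rats (adjusted p = 1, limma).

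The genes most like the members in pattern over the 16 arrays were read from 11496 probe sets with 1 gene symbol and a mean log2 value of at least 6. For the mean of the synthesis genes they were Sec61a1 (r = 0.91), Vdac2 (0.908), Rpl7l1 (0.894), Clptm1l (0.892) and Eif4h (0.889). For Abca1 they were Dgka (0.834), Colgalt1 (0.815) and Tgfbr1 (0.794), for Abcg1 Six4 (0.959), Tdrkh (0.937) and Pir (0.936), and for Apoe Stmn3 (0.935), Capns1 (0.934) and Psmb7 (0.931). These r describe arrays that share age, surgery and hybridisation, and young SNI replicate 2 is among them. Each gene was read from its probe set with the highest mean, which for Abca1 was 1382431_at. That probe set did not pass in adult SNI against either control. Its r was 0.54 with 1384381_at and 0.623 with 1383355_at, which did pass. The genes named for Abca1 thus describe 1382431_at and not the probe sets that passed.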

How the data were processed

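RNA of pooled L4/L5 DRG had been hybridised to 16 Affymetrix rat genome arrays. The log2 values are as deposited: the authors applied GC-RMA and had removed 2 of 18 arrays, and no version of a tool of theirs is given in the sources used here. Each value carries the error of its number of pools only. Of 31099 probe sets, 57 controls were left out and 31042 tested, of which 20826 were listed with 1 gene symbol, 436 with several and 9780 with none. Hmgcs1 is not reported here.

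The members and gene lists were chosen with earlier results of these data known. All 16 arrays entered 1 linear model with 6 group means (limma 3.58.1, R 4.3.3, residual degrees of freedom 10, prior degrees of freedom 1.24), and p was adjusted by Benjamini-Hochberg over all probe sets of a comparison, with 0.05 as threshold. Intervals are at 95%. For list levels, pathway lists and similar patterns a gene was read from its probe set with the highest mean over the arrays. Named were all member probe sets, every pathway gene that passed or, where none did, the 2 with the smallest p, and the genes of most similar pattern. The code was tested on simulated data: of 100 probe sets changed by 2 on the log2 scale, 81 were recovered for adult SNI against sham, 80 for adult SNI against contralateral, 78 for young SNI against sham and 76 for young SNI against contralateral, and of 100 changed by 1, 54, 55, 52 and 49. Of the unchanged probe sets 14, 7, 6 and 7 were called.

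Replicate numbers are in the sample titles. The deviations from group means of same-numbered adult SNI and contralateral arrays correlated at 0.449, 0.445 and 0.362, all over 0.1, and the numbers were therefore taken to pair these arrays, whose ganglia are the 2 sides of SNI rats. Alternatives were each age fitted alone, a trended or robust variance prior, a filter (log2 above 4 in at least 2 arrays), array weights, quantile normalization, the replicate block, adjustment over all 12 comparisons together and leaving out each array. Where an array was left out of a group of 2, the lone array was assumed to vary like the other groups. Python 3.11.15, pandas 2.3.3, numpy 2.4.6 and matplotlib 3.10.9 were used for sequences and plots.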

Additional observations from a re-analysis of the deposited data

Results flagged for a closer look

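The adult response minus the young response of Abca1 1384381_at was 2.76 on the log2 scale against sham (adjusted p = 0.0526, limma) and 2.52 against contralateral (adjusted p = 0.236, limma). It is given here because the 3 adult SNI arrays were all above their controls while both young SNI arrays were below all of theirs. By the 8 injury genes the young SNI arrays were not set apart from these controls. The mean of these genes was 8.64 and 10.68 in young SNI, against 9.85 and 6.33 in young contralateral and 10.17, 11.47 and 8.37 in young sham. Abca1 1384381_at in the same arrays was 6.60 and 6.77, against 7.90 and 6.97 and 7.38, 8.03 and 6.92. The part of injury state in the opposite signs was not tested. The difference was tested by the interaction and did not pass in either comparison. Both comparisons use the same SNI arrays. Xist was high in both young SNI arrays but not in every young control array, and the part of sex was not tested.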

How the results depend on the processing

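Of the 14 members, the 2 called in adult SNI against sham became 1 with each age fitted alone, 1 with quantile normalization, 0 with the replicate block, and 0 to 3 when single arrays were left out. Against contralateral the 2 became 1 with each age fitted alone, 0 with the replicate block, 3 with array weights or quantile normalization, where Abcg1 1373995_at passed, and 0 to 2 without single arrays. The block against sham, whose numbers were not taken as pairs (correlations -0.041, 0.132 and 0.2), gave adjusted p of 0.0572 for Abca1 1384381_at and 0.113 for 1383355_at (limma). The 0 called in the adult minus young response became 1 against sham with a variance trend, the filter, quantile normalization or adjustment over all comparisons, and 0 to 1 without single arrays, and 1 against contralateral with adjustment over all comparisons, and 0 to 1 without single arrays. Between adult SNI and young SNI the 1 became 0 with array weights and 0 to 2 without single arrays. Over the 3 surgery groups the 1 became 0 with a variance trend, a robust prior, array weights, the replicate block or adjustment over all comparisons, and 0 to 2 without single arrays. In the other comparisons of members the count was 0 under every alternative run. The efflux mean with all probe sets of a gene was 8.66 in adult SNI, 8.42 in adult contralateral, 8.33 in adult sham, 8.30 in young SNI, 8.50 in young contralateral and 8.47 in young sham, since dim probe sets then enter. The synthesis mean of young contralateral was 12.14 with all probe sets and 12.17 with quantile normalization, and that gave an efflux mean of 11.68 in adult contralateral and 11.60 in young SNI. No called difference turned its sign. Except where a construction is named, the cause was not tested. Groups of 2 and 3 pools limit precision, and Apoe 1371288_at stayed at 3.81 to 4.06, too dim to follow a change.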
